A study of Homo sapiens with 12 samples.

Results

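CCR1, CCR2, CCR7, CXCR4 and CX3CR1 are 5 chemokine receptor genes of THP1 cells, an established human monocytic leukemia line. They were taken by symbol as 5 of the 58735 rows of the gene count table, with no measured value in the rule. RNA-sequencing covered 12 libraries in 4 groups of 3, all from THP1 cells kept for 24 h in endothelial medium and then given 100 ng/ml LPS for 2 h. In mono-culture the THP1 cells were alone. In the 3 co-cultures they sat in transwell inserts above human umbilical vein endothelial cells (ECs), which were control ECs given DMSO, senescent ECs (senECs) given etoposide, a DNA-damaging drug, or senECs given etoposide and EGCG, a green tea catechin. The inserts had pores of 1 µm, which let soluble factors pass. No group was left without LPS, so the values describe receptor transcripts in stimulated cells. THP1 cells are 1 leukemia line, not primary monocytes. The labels do not say whether replicates came from separate cultures, so that p-values measure the spread between libraries, which may be technical.

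Chemokine receptors are G protein-coupled receptors that steer leukocytes along gradients of chemokines. CCR2, the receptor of CCL2, takes classical monocytes out of the bone marrow and into inflamed tissue. CCR1 binds CCL3, CCL5 and CCL23 and serves arrest and migration of monocytes. CX3CR1, the receptor of the endothelial chemokine CX3CL1, marks patrolling monocytes, CXCR4 holds cells in CXCL12-rich niches, and CCR7 guides mature dendritic cells and lymphocytes to lymph nodes. Ligand-bound receptors signal through Gαi proteins, and GRK kinases and β-arrestins then switch the signal off.

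The positions are those of GENCODE release 29 on GRCh38. CCR1 and CCR2 lie on chromosome 3 with 145 kb between the gene models, CCR1 at 46201709 to 46208396 on the minus strand and CCR2 at 46353734 to 46360928 on the plus strand. CX3CR1 lies at 39263494 to 39281735 of the same chromosome, CXCR4 at 136114349 to 136118165 of chromosome 2 and CCR7 at 40553769 to 40565472 of chromosome 17, all 3 on the minus strand. The values of each gene are reads counted over its exons. Sequence just upstream of the gene model is shown for CCR1, CXCR4 and CX3CR1, the members with a promoter entry that reaches upstream of it. It was read from RefSeq promoter entries on GRCh38.p14, minus strand, 5′ to 3′, and stops at the base before the gene model. Capitals mark letters of 3 searched motifs on either strand, the ETS core AGGAAGT, the TATA box TATAAA and the GC box GGGCGG.
CCR1, chr3:46208397-46208563: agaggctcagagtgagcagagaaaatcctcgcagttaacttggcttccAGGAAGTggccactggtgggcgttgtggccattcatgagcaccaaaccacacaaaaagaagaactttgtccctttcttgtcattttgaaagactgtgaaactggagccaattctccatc
CXCR4, chr2:136118166-136118399: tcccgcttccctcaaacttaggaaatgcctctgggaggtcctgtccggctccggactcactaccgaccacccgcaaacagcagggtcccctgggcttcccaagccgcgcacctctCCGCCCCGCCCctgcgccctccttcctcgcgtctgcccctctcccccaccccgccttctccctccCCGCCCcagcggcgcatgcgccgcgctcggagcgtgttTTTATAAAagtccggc
CX3CR1, chr3:39281736-39281985: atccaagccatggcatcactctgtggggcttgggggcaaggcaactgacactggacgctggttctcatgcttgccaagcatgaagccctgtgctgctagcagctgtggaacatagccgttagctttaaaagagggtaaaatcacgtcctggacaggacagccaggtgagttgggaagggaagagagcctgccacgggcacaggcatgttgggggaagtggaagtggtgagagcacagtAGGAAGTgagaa

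CCR1 (167 bases, 47.3% GC) held 1 ETS core, and so did 3.901% of 35116 RefSeq promoters over the same stretch. CX3CR1 (250 bases, 55.2% GC) also held 1 ETS core, which 7.01% of promoters had at that length. CXCR4 (234 bases, 68.4% GC) held 3 GC boxes, of which 2 share a base, and 2 overlapping matches of the TATA box, 1 on each strand. Among all promoters at that length, 40.5% had a GC box and 10.5% a TATA box. These matches describe letters and were tied to no factor. CCR2 also had a RefSeq entry, whose window lies inside the gene model, and no entry was available for CCR7.

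The receptors differed widely in abundance. Per exon length, as FPKM (the count over exon length and library size) averaged over the 12 libraries, CCR2 stood highest at 37.5 (range 30.3 to 45.7), followed by CCR1 at 25.7 (19.9 to 34.4) and CXCR4 at 11.7 (10.2 to 13.6). CX3CR1 was at 2.47 FPKM (1.47 to 3.29) and CCR7 at 0.178 FPKM (0.0496 to 0.461). The ratio of neighbouring mean levels was 1.46 for CCR2 to CCR1, 2.20 for CCR1 to CXCR4, 4.72 for CXCR4 to CX3CR1 and 13.8 for CX3CR1 to CCR7. Each gene lay above the next in 12 of 12 libraries, whatever the culture. In reads, CCR2 had 1977 to 3164 per library, CCR1 897 to 1747, CXCR4 364 to 629, CX3CR1 100 to 251 and CCR7 2 to 21, so that CCR7 carries by far the largest counting error.

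**Figure D1:**
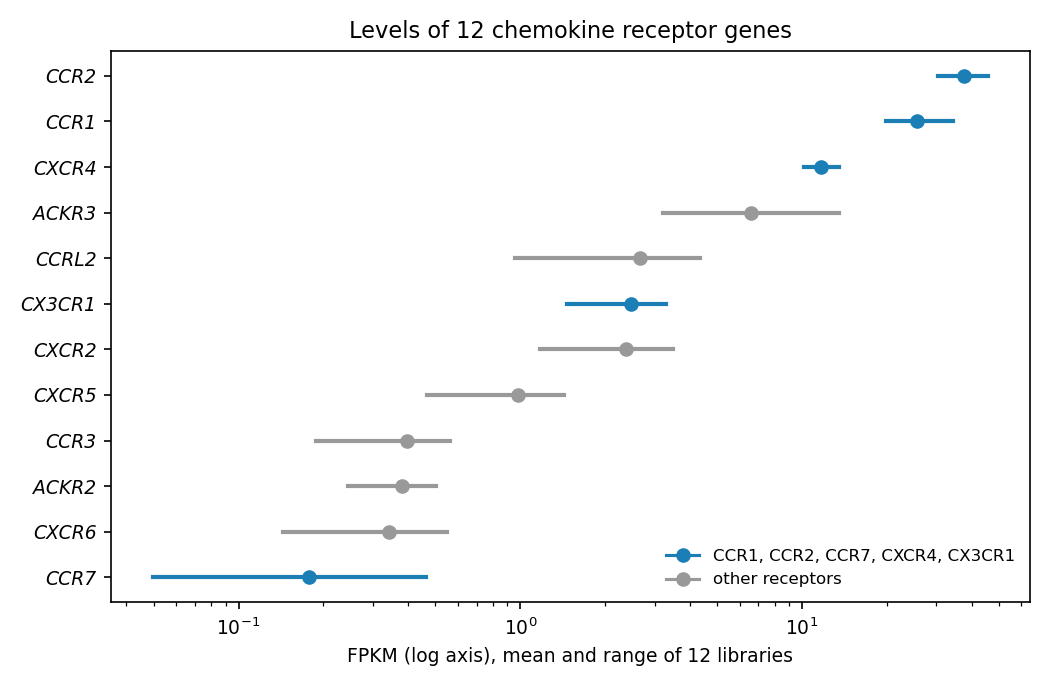
Mean FPKM (log axis) of the 5 receptors and the 7 other chemokine receptor genes with a mean of at least 1 CPM, with lines from the lowest to the highest of 12 libraries. CCR2, CCR1 and CXCR4 are the highest 3, CX3CR1 at 2.47 FPKM lies between CCRL2 and CXCR2, and CCR7 at 0.178 FPKM is the lowest shown.

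CCR1 and CCR2, the inflammatory receptors, were somewhat lower in co-culture, without passing the test. Levels between libraries are given as CPM, the count scaled to the TMM-normalized library size. CCR1 was at 90.3, 94.05 and 66.9 CPM in mono-culture replicates 1, 2 and 3. With control ECs it was at 73.9, 65.2 and 57.2 CPM in replicates 1, 2 and 3, with senECs at 66.6, 68.8 and 54.2 CPM in replicates 1, 2 and 5, and with EGCG-treated senECs at 71.4, 74.6 and 57.7 CPM in replicates 1, 2 and 5. The 2 highest libraries were mono-culture replicates 1 and 2, while mono-culture replicate 3 fell among the co-cultures, so that the groups overlapped. In bulk RNA, a lower level in every cell and fewer cells with the transcript cannot be told apart.

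The log2 fold change of CCR1 against mono-culture was −0.36 ± 0.14 (SE) for control ECs, −0.41 ± 0.14 for senECs and −0.30 ± 0.14 for EGCG-treated senECs, a change in level of −18.9 to −24.5%. By edgeR's quasi-likelihood test with Benjamini-Hochberg adjustment over 25873 genes, the adjusted p was 0.689, 0.289 and 0.574. For the mean of the 3 co-cultures it was −0.35 ± 0.11, with an interval at 95% from −0.59 to −0.12, an unadjusted p of 0.00502 and an adjusted p of 0.213. CCR1 therefore did not pass the threshold of 0.05, although its intervals against mono-culture all lay below 0. When every gene with a count was tested, it passed with senECs (adjusted p = 0.0473) and over the co-cultures (0.0173). With the replicate number added to the model (a replicate block), CCR1 passed with control ECs, with senECs and over the co-cultures. The replicate numbers did not meet the rule for pairing, so the block is given in the last section as an alternative. Between co-cultures CCR1 differed less, by 0.10 on the log2 scale for EGCG-treated against untreated senECs (interval −0.19 to 0.40). CCR1 overlaps CCR3 on the other strand, and the use of strand in counting is not stated. CCR3 reached at most 2.00 CPM.

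CCR2 was at 171, 170.3 and 125 CPM in mono-culture. It was at 141, 132 and 115 CPM with control ECs, at 149.8, 141 and 119 CPM with senECs and at 139.8, 161 and 113 CPM with EGCG-treated senECs, in the same order of replicates. Mono-culture replicates 1 and 2 were again the highest 2 of 12, and mono-culture replicate 3 lay within the co-culture range. The log2 fold change against mono-culture was −0.26 ± 0.14 (adjusted p = 0.794 by edgeR) for control ECs, −0.18 ± 0.14 (0.681) for senECs and −0.17 ± 0.14 (0.777) for EGCG-treated senECs. Over the co-cultures it was −0.21 ± 0.11 (adjusted p = 0.541, interval −0.44 to 0.03). Untreated and EGCG-treated senEC co-cultures had nearly the same mean level of CCR2, 137 and 138 CPM, with an interval of the log2 difference from −0.28 to 0.30.

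CXCR4, the receptor of CXCL12, lay slightly higher in co-culture. Its levels were 22.6, 25.0 and 23.2 CPM in mono-culture, 28.0, 27.6 and 24.0 CPM with control ECs, 26.5, 30.2 and 26.1 CPM with senECs and 25.2, 29.4 and 23.4 CPM with EGCG-treated senECs. All 3 senEC libraries were above all 3 mono-culture libraries, as for 8.18% of all genes tested, and the other co-cultures overlapped with mono-culture. CXCR4 was the only one of the 5 receptors without overlap. Against background shares of 6.51% of genes lower and 6.25% higher with control ECs, 8.5% lower with senECs, and 7.72% lower and 6.4% higher with EGCG-treated senECs, 0 of 5 receptors were separated in those directions. The log2 fold change was 0.22 ± 0.12 with senECs (edgeR adjusted p = 0.530, interval −0.03 to 0.48), 0.17 ± 0.12 with control ECs (0.906) and 0.13 ± 0.12 with EGCG-treated senECs (0.816). Over the co-cultures it was 0.18 ± 0.10 (adjusted p = 0.566).

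CX3CR1, the receptor of CX3CL1, was nearly level. Mono-culture libraries had 9.08, 10.1 and 9.09 CPM and senEC libraries 9.08, 9.66 and 9.31 CPM, with a log2 difference of −0.01 ± 0.21 (edgeR adjusted p = 1). With control ECs the libraries spread from 7.07 to 12.0 CPM around a mean of 9.43 CPM. With EGCG-treated senECs replicates 1 and 2 were at 9.08 and 9.34 CPM and replicate 5 at 5.36 CPM, the lowest of the 12. This library moved the log2 fold change of the group to −0.25 ± 0.21 (adjusted p = 0.787), and without it the value was −0.03.

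CCR7, the lymph node homing receptor, was barely detected. It had 2, 6 and 21 reads in the mono-culture libraries, 4, 4 and 8 reads in the control EC libraries, 8, 10 and 7 in the senEC libraries and 3, 7 and 17 in the libraries of EGCG-treated senECs. Replicate 3 of mono-culture and replicate 5 of the EGCG-treated group were the highest 2. Against mono-culture its log2 fold change ran from −1.002 ± 0.77 with control ECs to −0.06 ± 0.73 with EGCG-treated senECs. The intervals, such as −2.61 to 0.60 for control ECs, were wide and included 0, so that they do not settle the direction. Without mono-culture replicate 3 the value for control ECs became 0.23.

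**Figure D2:**
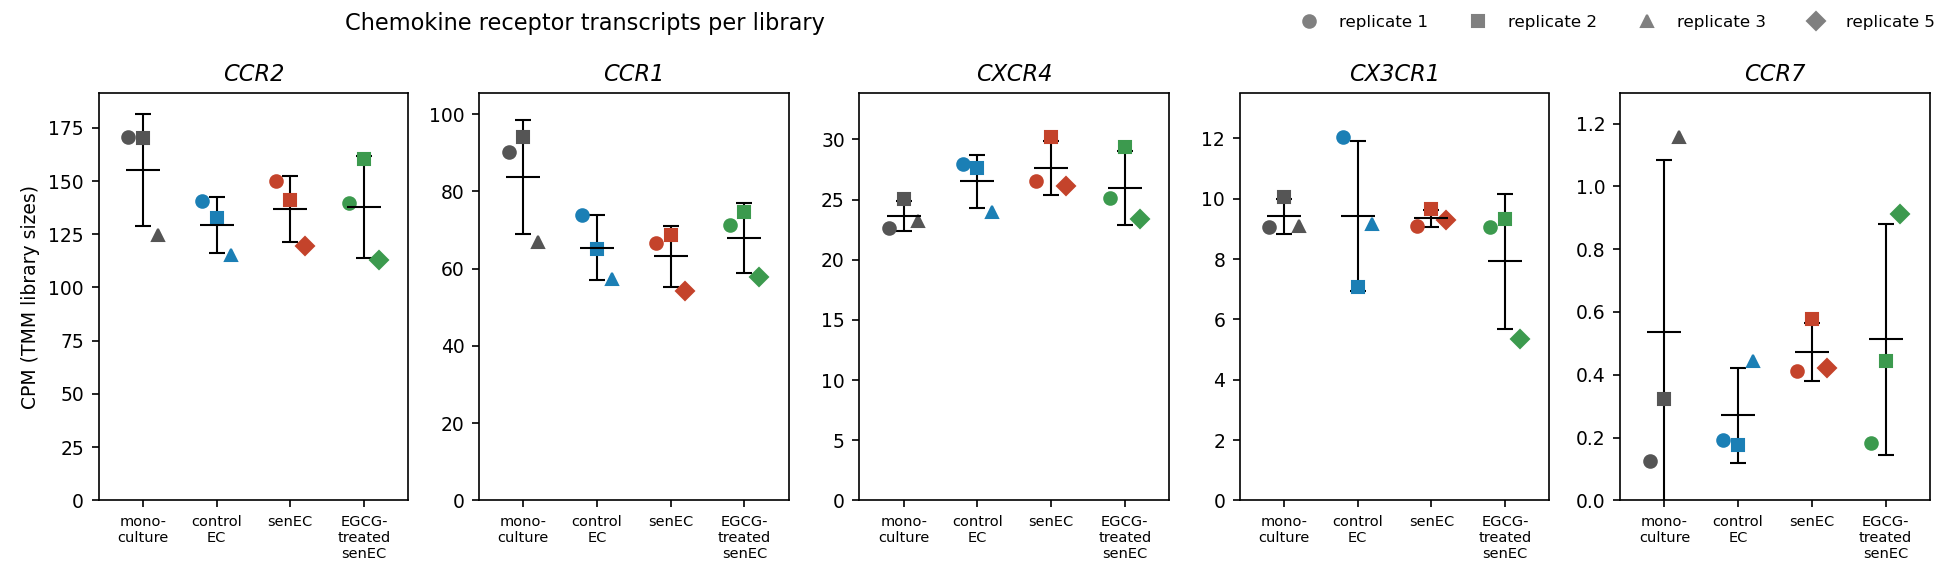
CPM of each receptor (linear axes from 0) in the 4 culture groups, 1 point per library with the replicate number as its shape, and the mean with a bar of 1 SD (n = 3, cut at 0 for CCR7 in mono-culture). The replicate 3 or 5 points of CCR1 and CCR2 are the lowest of each group, and mono-culture replicates 1 and 2 are the highest of all 12.

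In all, edgeR without a replicate block called 0 of 5 receptors in each comparison with mono-culture over the 25873 genes. DESeq2 called 0 of 5 as well. At an unadjusted p under 0.05, edgeR had 1 of 5, CCR1, against mono-culture in each of the 3 co-cultures and in their mean. DESeq2 had 0 of 5 with EGCG-treated senECs and 1 of 5 in the other comparisons with mono-culture. By edgeR 1687 of all 25873 genes had such a p for control ECs, 2847 for senECs, 2220 for EGCG-treated senECs and 2772 for the mean. Among all 25873 genes tested, edgeR called 0.143% for the control EC co-culture, 0.309% for senECs, 0.213% for EGCG-treated senECs and 0.723% for the mean of co-cultures. DESeq2 called 120, 347, 230 and 436 of these genes in the same order. Between co-cultures edgeR and DESeq2 called 0 of 5 receptors, where 0.0% of all genes were called in each of the 3 comparisons. At an unadjusted p under 0.05 both also had 0 of 5 receptors. Of all genes edgeR had 1709 there for senECs against control ECs, 1177 for EGCG-treated senECs against control ECs and 575 against untreated senECs. The question of whether EGCG treatment of senECs altered these receptors in THP1 cells is bounded by intervals of the log2 difference to untreated senECs of −0.35 to 0.17 for CXCR4, −0.69 to 0.20 for CX3CR1 and −1.41 to 1.69 for CCR7, beside those of CCR1 and CCR2 above. For senECs against control ECs the intervals were −0.34 to 0.24 for CCR1, −0.21 to 0.37 for CCR2 and −0.20 to 0.31 for CXCR4.

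**Figure D3:**
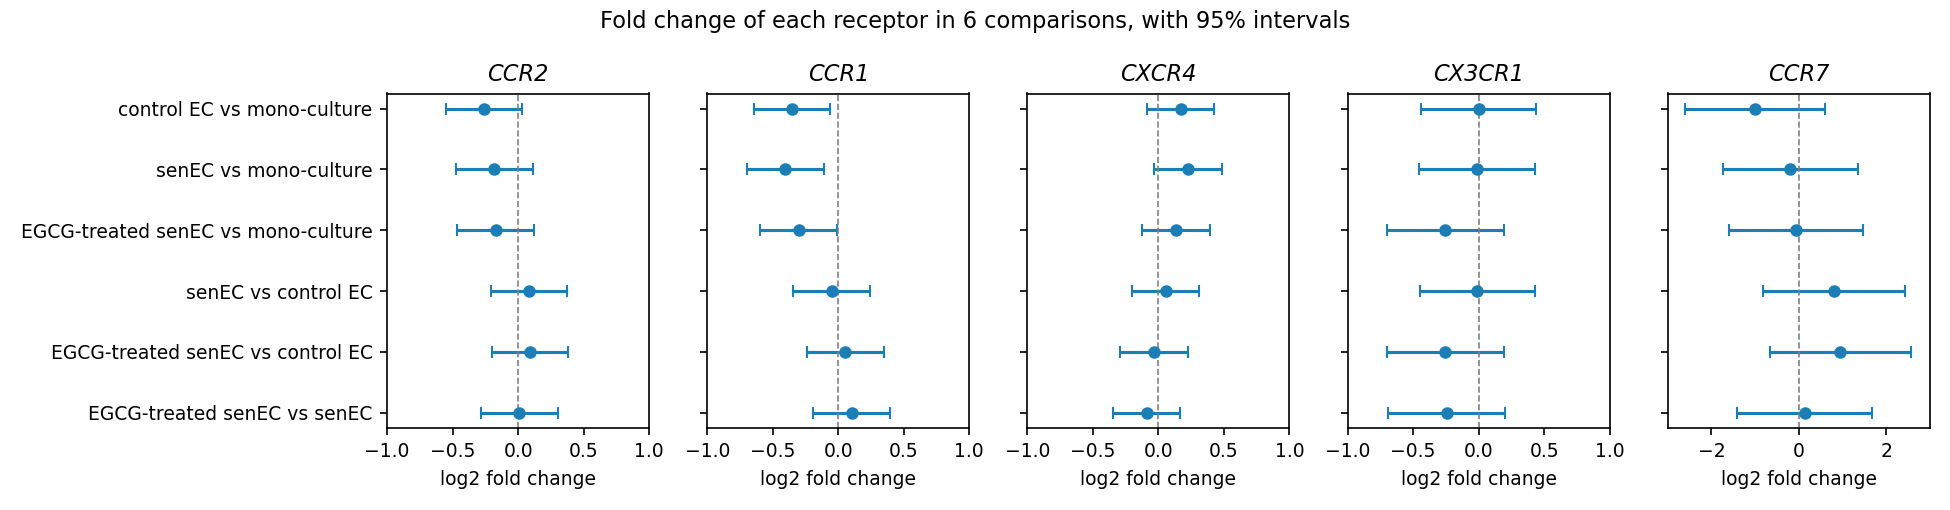
Log2 fold change (first named group minus second) of each receptor in 6 comparisons, with intervals at 95% from edgeR, and a wider axis for CCR7. The CCR1 intervals against mono-culture lie below 0, the others include 0, and no receptor passed an adjusted p of 0.05.

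Libraries with the same replicate number could be set side by side in 7 pairs of a co-culture with mono-culture, in which mono-culture replicates 1 and 2 serve 3 times each. CCR1 was lower in co-culture in 7 of 7 pairs, with log2 ratios from −0.53 to −0.23. CCR2 was also lower in 7 of 7, from −0.36 to −0.09, where 6.47% of all genes were lower in every pair. CXCR4 was higher in 7 of 7 pairs, from 0.05 to 0.31, as were 6.58% of genes. CX3CR1 was lower in 3 and higher in 4, and CCR7 lower in 2 and higher in 5.

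CCR1 and CCR2 differed with the replicate number, whatever the culture. The replicate 3 or 5 library was the lowest of its group in 4 of 4 groups for both genes, compared with 2.96% of all genes tested. Mean levels over the 4 groups were 75.5, 75.6 and 59.0 CPM of CCR1 for replicates 1, 2 and 3 or 5, and 150.2, 151 and 118 CPM of CCR2. The difference in log2(CPM + 2) between replicates 3 or 5 and 1 averaged −0.34 for CCR1 (−0.42 to −0.29 in the 4 groups) and −0.34 for CCR2 (−0.45 to −0.28). A term for the replicate number in the edgeR model gave an adjusted p of 0.00125 for CCR1 and 0.000459 for CCR2, so that 2 of 5 receptors passed, where 9.61% of all genes did. CXCR4 (adjusted p = 0.632), CX3CR1 (0.568) and CCR7 (0.297) did not. The replicate 3 or 5 library was the lowest of its group in 3 of 4 groups for CXCR4 and the highest in 3 of 4 for CCR7. Without mono-culture replicate 3 the adjusted p of CCR1 was 0.0508, so that its call was lost and CCR2 alone passed. Over the 12 fits that each left out 1 library, CCR1 passed in 11 and CCR2 in 12.

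Transcripts of the LPS response also differed with the replicate number. All 12 genes of this list (such as TNF and NFKBIA) passed for the replicate number, where 9.61% of all genes did. All 12 were highest in replicate 3 or 5 in 4 of 4 groups, compared with 4.35% of all genes. The summed level of the list was 2154 to 2570 CPM in replicates 1, 3027 to 3057 CPM in replicates 2 and 4364 to 5927 CPM in replicates 3 or 5. The list thus already rose from replicates 1 to 2. Between these, the means of CCR1 (75.5 and 75.6 CPM) and CCR2 (150.2 and 151 CPM) were nearly level. The smallest adjusted p values belonged to IL1B, with a mean log2 difference of 2.25 between replicates 3 or 5 and 1, CCL20 (1.96), TRAF1 (2.05) and PTGS2 (2.10). Between cultures 0 of 12 genes of the list passed by edgeR or DESeq2 in any comparison, with at most 1 of 12 at an unadjusted p under 0.05 by either. Within each group, CCR1 and CCR2 thus had their lowest value in the library with the highest LPS response transcripts. Over all 12 libraries this order held for CCR2 but not for CCR1. CCR1 in mono-culture replicate 3 (66.9 CPM) was above that in control EC replicate 2 (65.2) and senEC replicate 1 (66.6). What part the LPS response had in the receptor levels was not tested.

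**Figure D4:**
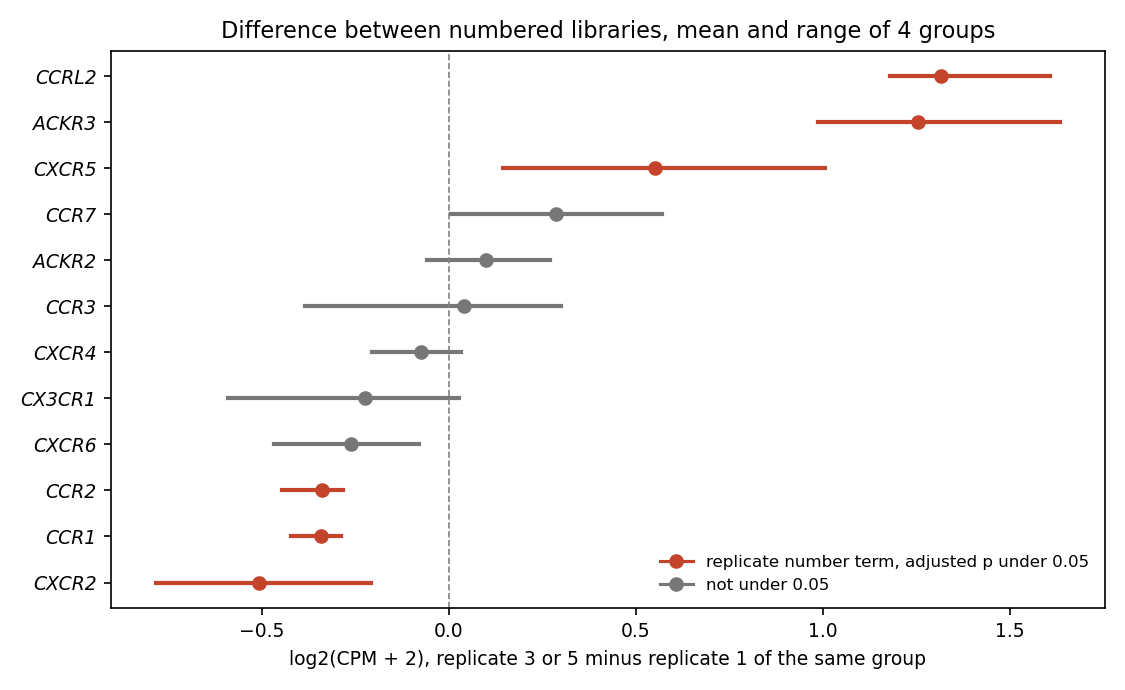
Difference in log2(CPM + 2) between replicate 3 or 5 and replicate 1 of the same group, for the 5 receptors and the other chemokine receptors with a mean of at least 1 CPM. Points are means and lines ranges of the 4 groups, in red where the replicate number passed an adjusted p of 0.05. CCR1 and CCR2 lie at −0.34, CXCR2 at −0.51, and CCRL2 and ACKR3 above 1.

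Of the 18 other chemokine receptor genes, 7 had a mean of at least 1 CPM and 11 were below it, 2 of them, CCR6 and ACKR1, without a count in any library. The atypical receptors ACKR3, which takes up CXCL12, at 6.60 FPKM, and CCRL2 at 2.66 FPKM were the most abundant of these, both under CXCR4. CXCR2, a receptor of CXCL8, was at 2.38 FPKM, CXCR5 at 0.977, CCR3 at 0.395, ACKR2, a scavenger of CC chemokines, at 0.381 and CXCR6 at 0.342. Between cultures 0 of the 12 tested passed in edgeR or DESeq2 in any of the comparisons, with at most 1 of 12 at an unadjusted p under 0.05 by either. For the replicate number 4 of 12 passed in edgeR and 3 in DESeq2, which left out CXCR2. Of all 25873 genes tested, 9.61% passed in edgeR and 1716 genes in DESeq2. CXCR2 was lower in replicates 3 or 5 than in 1, by a mean of −0.51 in log2(CPM + 2) and in 4 of 4 groups, as CCR1 and CCR2 were. Its call was lost without EGCG-treated senEC replicate 5 (adjusted p = 0.123). ACKR3 (1.25), CCRL2 (1.31) and CXCR5 (0.55) were higher there, ACKR3 and CCRL2 as the highest of the group in 4 of 4 groups, compared with 4.35% of all genes.

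The THP1 cells also transcribed several ligands of these receptors. CCL5, a ligand of CCR1, was the highest of them, at 43.4 FPKM, and CCL2, the ligand of CCR2, was at 7.89 FPKM. CXCL12, the ligand of CXCR4, was at 0.365 FPKM, CCL19 and CCL21, the ligands of CCR7, were at 0.102 and 0.124 FPKM, and CX3CL1, a ligand of CX3CR1, had no count in any library. CCL26, also listed as a ligand of the members, had means of 0.407, 0.477 and 0.185 CPM for replicates 1, 2 and 3 or 5. Of 16 ligand genes 10 were tested, and edgeR and DESeq2 called 0 in each comparison of cultures, with at most 1 of 10 at an unadjusted p under 0.05 by either.

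CXCL12 was at 2.74 to 3.39 CPM in mono-culture, 0.768 to 2.45 CPM with control ECs, 1.65 to 2.43 CPM with senECs and 1.65 to 2.62 CPM with EGCG-treated senECs. All 9 co-culture libraries were below all 3 mono-culture libraries, as for 1.64% of genes tested. Its log2 fold change over the co-cultures was −0.76 (adjusted p = 0.303 by edgeR), opposite in sign to that of CXCR4. For the replicate number 4 of 10 tested ligands passed by edgeR, CCL2, CCL3, CCL3L1 and CCL5, where 9.61% of all genes did. Each was highest in replicate 3 or 5 in 4 of 4 groups, compared with 4.35% of all genes. So was CCL23, which did not pass (edgeR adjusted p = 0.114). The mean differences of the 4 that passed, in log2(CPM + 2) between replicates 3 or 5 and 1, were 1.70, 1.64, 1.38 and 0.78. CCL3 and CCL3L1 are near-identical copies, between which reads are uncertain. In replicates 3 or 5 against 1, CCL2 was therefore higher and CCR2 lower. From replicates 1 to 2, mean CCL2 rose from 7.08 to 11.4 CPM, while CCR2 was nearly level (150.2 and 151 CPM).

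Among 26 genes that carry or end the receptor signal, 25 were tested. By edgeR 3 of them passed against mono-culture in at least 1 comparison, where 0.143% to 0.723% of all genes passed. GRK6, a kinase that phosphorylates active receptors, rose. It was at 85.1 to 99.1 CPM in mono-culture, 114 to 126 CPM with control ECs, 125 to 140.2 CPM with senECs and 118 to 133 CPM with EGCG-treated senECs, so that all 9 co-culture libraries were above mono-culture, as for 1.77% of genes. Its log2 fold change was 0.43 ± 0.10 with control ECs (edgeR adjusted p = 0.143), 0.54 ± 0.10 with senECs (0.0213), 0.49 ± 0.10 with EGCG-treated senECs (0.0393) and 0.49 ± 0.08 over the co-cultures (0.00645). The last call was lost without mono-culture replicate 2 (adjusted p = 0.0936) or 3 (0.0880). That with senECs was lost without mono-culture replicate 2 (0.126) or 3 (0.143) or senEC replicate 2 (0.137) or 5 (0.0558). The call with EGCG-treated senECs was lost on leaving out any of 9 libraries, all but control EC replicate 3 and senEC replicates 1 and 5, with an adjusted p from 0.0574 to 0.244.

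ARRB2, a β-arrestin that binds phosphorylated receptors, was at 18.3 to 24.1 CPM in mono-culture and 28.4 to 45.8 CPM with senECs, a log2 fold change of 0.79 ± 0.16 (edgeR adjusted p = 0.0404). In the other co-cultures its change was 0.28 ± 0.16 with control ECs (0.840) and 0.61 ± 0.16 with EGCG-treated senECs (0.177). PLCB2, a phospholipase activated by G protein βγ subunits, fell, from 294 to 312 CPM in mono-culture to 208 to 266 CPM over the co-cultures (log2 fold change −0.36 ± 0.08, adjusted p = 0.0398). The ARRB2 call was lost without any 1 mono-culture library, senEC replicate 2 or 5 or EGCG-treated senEC replicate 2 (adjusted p = 0.0613 to 0.258), and the PLCB2 call without any 1 mono-culture library, control EC replicate 1 or 3 or EGCG-treated senEC replicate 2 or 5 (0.0713 to 0.248). DESeq2 called these 3 genes and PIK3CG over the co-cultures.

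Per comparison, edgeR called 0 of 25 signalling genes with control ECs (4 at an unadjusted p under 0.05), 2 with senECs, 1 with EGCG-treated senECs and 2 over the co-cultures. The edgeR shares over all genes were 0.143%, 0.309%, 0.213% and 0.723%. DESeq2 called 2, 4, 2 and 4 of the 25, beside 120, 347, 230 and 436 of all 25873 genes. Between co-cultures both called 0 of 25, with at most 4 at an unadjusted p under 0.05 by either. The median log2 fold change over the co-cultures was 0.10 for the 25 genes and −0.02 for all genes. For the replicate number 5 of 25 passed by edgeR, where 9.61% of all genes did. RGS1 and RGS16, which hasten the end of the G protein signal, differed by 1.54 and 0.74 in log2(CPM + 2) between replicates 3 or 5 and 1, PIK3R5, a subunit of phosphoinositide 3-kinase γ, by 0.77, the β-arrestin ARRB1 by 0.39 and the Gαi subunit GNAI3 by 0.31. The GNAI3 call was lost without mono-culture replicate 1 (0.0966), control EC replicate 1 (0.114) or 3 (0.158) or EGCG-treated senEC replicate 1 (0.153).

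Library totals ranged from 15439836 to 22092600 counts. Of 12 monocyte markers, 9 had a mean above 1 CPM in mono-culture and 10 in each co-culture, CD68 and FCN1 staying under 1 CPM. The sum of the list was 736 to 929 CPM in mono-culture, 755 to 914 CPM with control ECs, 813 to 1212 CPM with senECs and 853 to 1022 CPM with EGCG-treated senECs, and it was higher in replicates 3 or 5 (914 to 1212 CPM) than in 1 (736 to 853 CPM). By edgeR 1 of 11 tested markers, CD14, passed with senECs, where 0.309% of all genes did. Over the co-cultures 2 of 11, CD14 and FCGR1A, passed, where 0.723% of all genes did. Of 11 tested markers edgeR called 7 for the replicate number, where 9.61% of all genes passed. The CD14 call with senECs was lost without any 1 mono-culture library, control EC replicate 2, senEC replicate 2 or 5 or EGCG-treated senEC replicate 2 (adjusted p = 0.0591 to 0.258). That over the co-cultures was lost without any 1 mono-culture library, control EC replicate 2 or 3, senEC replicate 2 or EGCG-treated senEC replicate 2 or 5 (0.0733 to 0.275). FCGR1A over the co-cultures was lost without any 1 mono-culture library, replicate 2 or 5 of EGCG-treated senECs or control EC replicate 3 (0.0596 to 0.216). For the replicate number FCGR1A alone of the 7 was lost on leaving out a library, which was any of 8, all but mono-culture replicate 2, control EC replicate 2 and EGCG-treated senEC replicates 2 and 5 (0.0561 to 0.254). Endothelial RNA was scarce: CDH5 had at most 1 read in a library, and the 11 markers other than EGFL7, which mono-culture cells also had at 17.8 to 21.7 CPM, summed to 2.01 to 5.78 CPM. Of 8 tested endothelial markers edgeR and DESeq2 called 0 between cultures and for the replicate number, with at most 1 at an unadjusted p under 0.05 by either. Of 5 tested lymphocyte and dendritic cell markers, only NKG7 passed by edgeR between cultures (senECs, EGCG-treated senECs and the mean of co-cultures against mono-culture). The shares over all genes there were 0.309%, 0.213% and 0.723%. LAMP3 and CD1C, 2 of the 5, passed for the replicate number, where 9.61% of all genes did. NKG7 with EGCG-treated senECs was lost without mono-culture replicate 1 (0.0574) or 2 (0.120) or EGCG-treated senEC replicate 2 (0.102). The CD1C call was lost without control EC replicate 1 or 3, senEC replicate 1 or EGCG-treated senEC replicate 1 or 5 (0.0517 to 0.290). The part of these differences in the receptor levels was not tested.

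Over the 12 libraries, CCR1 and CCR2 were each other's close match. Pearson's r of log2(CPM + 2) between them was 0.92, which put CCR2 next to FKBP9 (0.92) and BLOC1S1-RDH5 (0.92) for CCR1, and CCR1 ahead of IL31RA (0.91) and GALK2 (0.90) for CCR2, among 14386 genes with a mean of at least 1 CPM. CXCR4 was most like TOMM34 (0.93), WLS (0.87) and LSM12 (0.87), and CX3CR1 most like KIZ (0.90), GPC5 (0.90) and LPAR3 (0.89). CXCR4 had an r of −0.02 with CCR1 and 0.21 with CCR2. These are descriptions over 12 libraries that share groups, replicate numbers and size normalization, and the highest of many values.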

How the data were processed

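Gene expression was measured by RNA-sequencing in 12 THP1 libraries, grouped by their labels. The authors deposited whole-number read counts per gene without normalization, from cleaned reads aligned with HISAT2 (hg38 per the labels); the counting program is not given in the sources used here. Another 4 columns match no described sample and were not used. All 57169 distinct symbols occur in GENCODE release 29, which gave positions and exon lengths for FPKM. Replicates differed by more than sampling noise (chi-square per degree of freedom 9.23 to 33.7 over 12 pairs).

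Counts were fitted with edgeR 4.0.16 (quasi-likelihood, TMM) in R 4.3.3. A single model held the 12 libraries and the 25873 genes whose counts summed to 10 or more. The threshold was an adjusted p (Benjamini-Hochberg) of 0.05, and no fold change minimum was set. The standard errors came from the log2 fold change and its F statistic. The code was tested on simulated data.

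Alternatives were DESeq2 1.42.0, its size factors in edgeR, every gene with a count, edgeR's own filter, fewer groups, library totals, a pseudocount of 0.5, a replicate block, libraries numbered 1 and 2 only, and each library left out. The members and lists were chosen with earlier results of these data known. Named were the 5 members, other receptors with a mean of at least 1 CPM, per list of ligands, signalling and LPS response genes up to 4 called genes with the smallest adjusted p and the ligand with the highest FPKM per member, and the 3 genes most like each member. GNAI3, PIK3CG, TNF, NFKBIA and the named marker genes were added after their values were seen.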

Additional observations from a re-analysis of the deposited data

How the results depend on the processing

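In 0 of the 7 culture comparisons did DESeq2, its size factors, edgeR's own filter, fewer groups or leaving out any 1 library change the 0 of 5 receptors called. Testing every gene with a count called 1 of 5, CCR1, with senECs (−0.40, adjusted p = 0.0473) and over the co-cultures (−0.35, 0.0173); the cause was not tested. Samples were taken as paired only if every same-numbered pair had a correlation of deviations from group means over 0.1. Over 14 pairs it ran from 0.027 to 0.497, with 10 above 0.1 and the others all of replicate 2, so the rule was not met. The 4 pairs of a replicate 3 with a replicate 5 lay at 0.316 to 0.474. Further, 5 of 6 libraries of mono-culture and control ECs and 5 of 6 of the senEC groups were most like their own number. A replicate block called 1 of 5, CCR1, with control ECs (−0.35, adjusted p = 0.0225), senECs (−0.41, 0.00897) and over the co-cultures (−0.36, 0.00165). With numbers 3 and 5 joined it again called 1 in these (0.0213, 0.00245 and 0.000694). Over all genes the block moved the calls from 37 to 469 with control ECs, 80 to 709 with senECs, 55 to 424 with EGCG-treated senECs, 187 to 824 over the co-cultures and 0 to 153, 34 and 13 between co-cultures, and over all alternatives the counts ran to 1407 with senECs. The replicate number called 2 of 5 receptors, 0 with numbers 1 and 2 only (chosen after seeing the data), which leaves out every replicate 3 or 5 and so says nothing about stability, and 1 to 2 on leaving out a library.

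Signs of uncalled changes reversed, each cause untested. CCR7 against mono-culture became 0.62 with senECs, 0.59 with EGCG-treated senECs and 0.16 over the co-cultures under the block, 0.19 and 0.042 (senECs, EGCG-treated senECs) with 3 and 5 joined, and 1.09, 0.45 and 0.42 with numbers 1 and 2 only. For EGCG-treated against untreated senECs it became −0.035, −0.15 and −0.65. CX3CR1 became −0.012 and −0.013 under both blocks with control ECs, and under the block 0.091 with senECs and 0.10 for senECs against control ECs. CCR2 became −0.0066 for EGCG-treated against untreated senECs over every gene with a count. On leaving out 1 library, CCR7 against mono-culture ran from −1.52 to 0.23 with control ECs, −0.64 to 1.03 with senECs, −0.77 to 1.16 with EGCG-treated senECs and −0.87 to 0.80 over the co-cultures, the upper ends without mono-culture replicate 3. CX3CR1 ran from −0.22 to 0.17 with control ECs and −0.040 to 0.041 with senECs. For senECs against control ECs the ranges were −0.14 to 0.048 for CCR1, −0.013 to 0.095 for CXCR4 and −0.18 to 0.21 for CX3CR1. For EGCG-treated senECs they were −0.034 to 0.16 (CCR1), −0.033 to 0.21 (CCR2) and −0.13 to 0.038 (CXCR4) against control ECs, and −0.11 to 0.13 (CCR2) and −0.58 to 0.54 (CCR7) against untreated senECs. Counts of 2 to 21 limit CCR7.

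Among signalling genes, a fit of only the groups compared ended the calls of GRK6 with senECs (adjusted p = 0.0851) and EGCG-treated senECs (0.0884) and of ARRB2 with senECs (0.123), and edgeR's own filter that of ARRB2 (0.0632). That filter also ended the calls of CD14 with senECs (0.0783) and over the co-cultures (0.0951) and, for the replicate number, of FCGR1A (0.0913), GNAI3 (0.0567) and CD1C (0.0870). DESeq2 did not call FCGR1A (0.0913) or CD1C (0.135) there. CD14 also missed the threshold with DESeq2 size factors over the co-cultures (0.0526) and with only the groups compared for senECs (0.0793). The block gave CXCL12 with control ECs an adjusted p of 0.0176. With a pseudocount of 0.5, LINC01560 took the place of GPC5 beside CX3CR1.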
